A study of Mus musculus with 6 samples.

Results

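Cytosolic ribosomal protein genes encode the proteins that, with ribosomal RNA, build the small and the large subunit of the ribosome that translates nuclear-encoded mRNA. Their mRNAs are short, abundant and made by nearly every cell, and they rank with the growth-related genes that are high in dividing crypt cells and in colon tumours. Most begin with a C followed by a run of pyrimidines, the terminal oligopyrimidine (TOP) motif, through which the kinase mTORC1 and the RNA-binding protein LARP1 control how well they are translated and how stable they are. MYC, a transcription factor that acts downstream of Wnt signalling in the colon, is known to raise transcription of ribosome components.

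The genes were chosen by name and not by any measured value. They are the protein-coding genes called Rps or Rpl with a number, with an optional a, x, l or l1, together with Rpsa, Rplp0, Rplp1 and Rplp2. The rule found 82 of the 53700 gene rows in the deposited table, 31 for the small subunit and 51 for the large subunit. Of these, 79 had enough counts to be tested (31 small, 48 large). The other 3, Rpl3l, Rpl39l and Rpl10l, were nearly or wholly without counts in both groups. Components with other names fall outside the rule, and Rps3a1, Fau, Rack1 and Rpl36al are given further on as a list of their own.

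RNA was sequenced from 6 mouse colon tumours. The APC-WT tumours (n = 3) came from cachectic mice that had eaten doxycycline at 100 mg/kg of food for 10 days and kept endogenous expression of Tcf7l2, a transcription factor that works with beta-catenin. The APC-KI tumours (n = 3) came from mice that had eaten the same food for 6 weeks, by which time doxycycline had repressed endogenous Tcf7l2 throughout the body and the mice had recovered from cachexia. Both groups therefore carried doxycycline, and the genotype, how long doxycycline was given and whether mice were cachectic cannot be told apart. The labels give no age, no strain, no definition of the APC-KI allele and no statement on whether tumours were pooled, so p-values measure the spread between these samples only. The comparison asks how tumours with repressed Tcf7l2 in recovered mice differ from tumours of cachectic mice.

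Libraries held 51777342 to 63921108 counts, and the groups overlapped in depth. Tcf7l2 was 44.1, 43.8 and 35.6 CPM (counts per 1000000 of the library, scaled with TMM factors that align the bulk of genes between libraries) in APC-WT against 4.48, 6.90 and 5.34 CPM in APC-KI, 7.39-fold lower (edgeR adjusted p = 0.00124). Genes of the Y chromosome were counted 19164 and 16055 times in replicates 1 and 2 of APC-WT. They were counted 0 times in the other 4 libraries, so 1 APC-WT and 3 APC-KI libraries lacked them. Y-linked counts, and with them the likely sex of the mice, are thus partly mixed with the contrast between the groups. All 10 epithelial markers were detected and 7 of them rose, and none of the marker lists had a gene at 0 in all libraries. Over all 19127 genes tested, 2388 were higher and 1459 lower in APC-KI (edgeR quasi-likelihood test, adjusted p under 0.05). With library totals in place of TMM factors the split was 1979 higher and 2841 lower. In bulk tumours fewer cells of a type and less RNA per cell cannot be told apart.

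Start-site sequence is shown first because the TOP motif is the feature for which this family is known. RefSeq start sites (build GRCm38.p6) were at hand for 62 of the 82 genes. A C at the start followed by 4 bases that are C or T stood at 13 of the 62 (20.97%), against 3.01% of all 27025 genes with a start site. It stood at 0 of 69 mitochondrial ribosomal protein genes, whose products work in the separate ribosome of mitochondria. The lines below give 10 bases before and 20 bases from the start site for 9 of the 13, with the unbroken run of C and T from the start in capitals.
Rps6: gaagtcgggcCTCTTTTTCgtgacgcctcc
Rpl15: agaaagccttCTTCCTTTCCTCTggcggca
Rpl28: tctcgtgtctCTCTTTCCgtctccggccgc
Rpl35: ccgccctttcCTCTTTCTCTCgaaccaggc
Rpl38: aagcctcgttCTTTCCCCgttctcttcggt
Rps15a: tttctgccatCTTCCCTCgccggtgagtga
Rps18: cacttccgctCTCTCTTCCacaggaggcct
Rps27: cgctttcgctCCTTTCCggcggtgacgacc
Rplp2: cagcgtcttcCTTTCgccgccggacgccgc
These windows lie at chr4:86857348-86857377 (Rps6, minus strand), chr14:18270967-18270996 (Rpl15, minus), chr7:4792955-4792984 (Rpl28, plus), chr2:39005112-39005141 (Rpl35, minus) and chr11:114668570-114668599 (Rpl38, plus). The others lie at chr7:118116128-118116157 (Rps15a, minus), chr17:33955646-33955675 (Rps18, minus), chr3:90213629-90213658 (Rps27, minus) and chr7:141447641-141447670 (Rplp2, plus).

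Most of the 62 genes lacked the run at the annotated start. Among them were Rpl6, which is 1 of the genes that fell, and the divergent copies Rpl7l1, Rps27l and Rpl22l1.
Rpl6: acctcccgtcattgcttatagaccggaagc
Rpl7l1: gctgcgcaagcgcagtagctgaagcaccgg
Rps27l: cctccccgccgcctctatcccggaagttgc
Rpl22l1: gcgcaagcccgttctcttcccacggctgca
They lie at chr5:121204491-121204520 (Rpl6, plus), chr17:46782637-46782666 (Rpl7l1, minus), chr9:66946076-66946105 (Rps27l, plus) and chr3:28805498-28805527 (Rpl22l1, plus), and Rpl7 had no entry. An annotated start a few bases off hides the motif, so a wider search is given as well. A run of at least 8 C or T between 20 bases before and 50 bases after the start was present in 48 of the 62 genes (77.4%), against 28.5% of all genes and 26.1% of mitochondrial ribosomal protein genes.

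Other promoter letters were counted on both strands from 250 bases before to 50 bases after the start. CCGGAAG, the core bound by ETS factors, stood in 25 of the 62 windows (40.3%), against 9.93% of all windows and 37.7% of those of mitochondrial ribosomal proteins. AAGATGGC, the YY1 motif, stood in 6 (9.68%, all windows 3.19%). CACGTG, the E-box that MYC and other factors bind, also stood in 6 (9.68%, all windows 8.09%). CTTTGAT, the motif of the TCF family to which Tcf7l2 belongs, was in 0 of the 62 windows and in 4.29% of all windows, which says only that these letters are not in these windows. Members with the C and pyrimidine run at the start had a median log2 change of −0.074 (n = 13) and those without it −0.13 (n = 46). For the wider run of 8 the medians were −0.12 (n = 47) and −0.13 (n = 12).

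Few ribosomal protein genes passed the test, and most had a small fitted change towards lower levels in APC-KI. Of the 79 tested, 2 fell in APC-KI (Rpl7 and Rpl6), 0 rose and 77 did not pass the test, where 7.63% of all genes tested fell and 12.5% rose (20.1% in either direction). With no filter on low counts 1 rose, Rpl39l. The 2 that fell are 2.53% of the 79. Fitted changes lay below 0 for 74 of the 79, with a median log2 change of −0.12 (quartiles −0.18 and −0.084). The median of all genes tested was −0.016, with 9858 of 19127 below 0. A fitted change between −0.3 and 0 was found for 69 members, and the standard error was under 0.1 for 69. At an unadjusted p under 0.05 there were 16 members (20.3%), against 37.8% of all genes tested. Groups did not overlap, with APC-KI lower, for 37 of the 79 members, where 21.5% of all genes tested behaved so. APC-KI was higher without overlap for 1 tested member, Rps15a, against 23% of all genes.

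**Figure D1:**
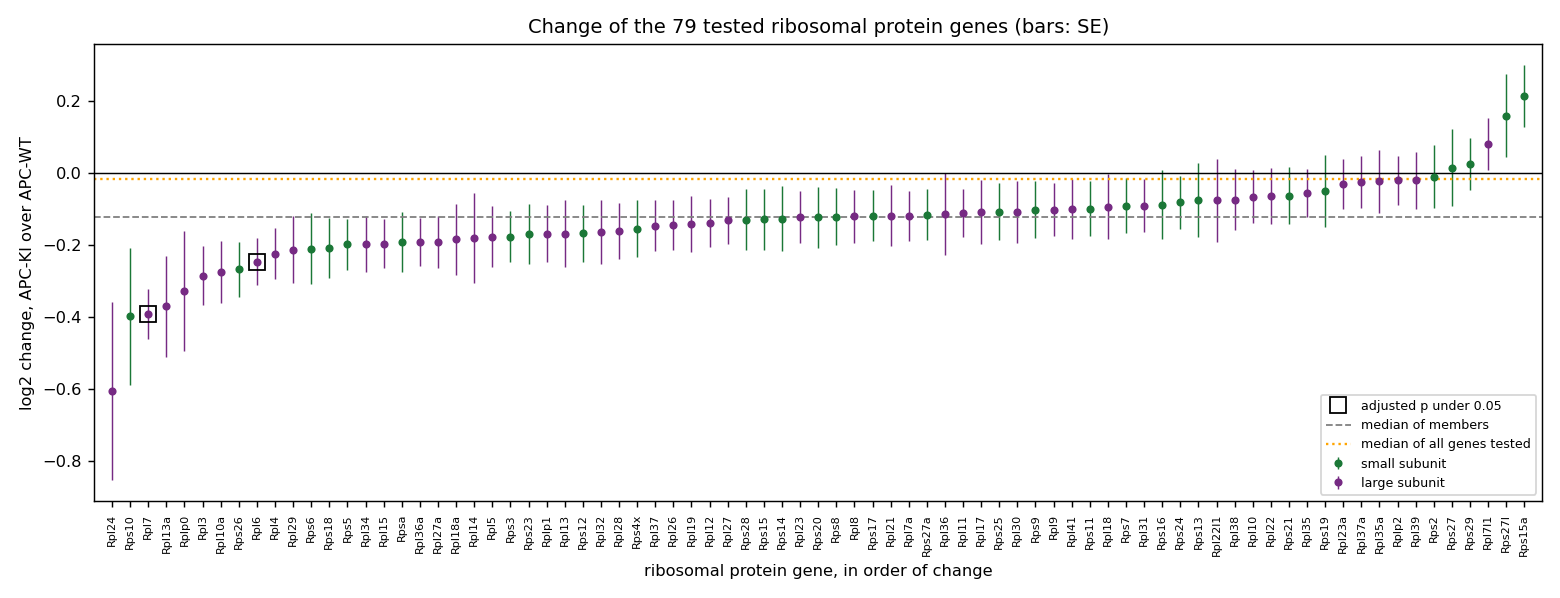
Fitted log2 change (APC-KI over APC-WT, vertical axis) of the 79 tested ribosomal protein genes in order of change, with bars of 1 standard error, green for the small and purple for the large subunit. Of the points, 74 lie below 0, and the 2 that passed the test, Rpl7 and Rpl6, are boxed.

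Which fit is used sets how many members pass. DESeq2 called 10 members lower (12.7%), where it called 12.5% of all genes lower. Limma-voom called 4 (5.06%, all genes 7.6%). The fit with library totals in place of TMM factors called 32 (40.5%, all genes 14.9%). These 3 fits called 0 members higher. Leaving out 1 library at a time left 0 to 2 members lower. None passed without APC-WT replicate 2, APC-KI replicate 1 or APC-KI replicate 2, and Rpl6 passed in none of those 6 fits. None passed among the 4 libraries without Y-linked counts, where 1 APC-WT library stands against 3.

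Rpl7, a large subunit protein, had 1119, 1068 and 1135 CPM in APC-WT against 826.8, 857 and 848 CPM in APC-KI. The groups lay well apart, and Rpl7 fell by 0.39 on the log2 scale (SE 0.069, edgeR adjusted p = 0.0139), which is 23.8%. Rpl6, another large subunit protein, had 684, 659 and 658 CPM in APC-WT against 564, 572 and 552 CPM in APC-KI. It also showed no overlap, and the change of −0.25 (SE 0.065, edgeR adjusted p = 0.0423) corresponds to a fall of 15.7%. Both had standard errors at the low end of the family, which ran from 0.065 to 0.25 with a median of 0.079.

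The members just past the threshold on the other side, chosen after their values were seen, had changes of the same order. Rps26, a small subunit protein near the mRNA exit, was at 385, 334 and 348 CPM against 298, 298 and 291 CPM, a log2 change of −0.27 (edgeR adjusted p = 0.0511). Rpl3, whose protein lies by the peptidyl transferase centre, was at 1134, 1003 and 982 CPM against 836, 847 and 878 CPM, a change of −0.28 (edgeR adjusted p = 0.0541). Rpl10a was at 516, 431 and 456 CPM against 388, 384 and 388 CPM, a change of −0.27 (edgeR adjusted p = 0.0625). In all 3 the groups did not overlap, as for 37 of the 79 members and 21.5% of all genes tested with APC-KI lower. The highest APC-WT value of each was that of replicate 1. Rps26 and Rpl3 passed with DESeq2 (adjusted p = 0.0150 and 0.0140) and Rpl10a did too (adjusted p = 0.0266).

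The 2 subunits had similar medians. The 31 small subunit genes had a median log2 change of −0.12, with 27 below 0 and 0 past the threshold. The 48 large subunit genes had a median of −0.14, with 47 below 0 and 2 lower. Within each library the counts of the large subunit genes over those of the small were 1.570, 1.555 and 1.556 in APC-WT and 1.503, 1.489 and 1.539 in APC-KI. Without Rplp0, which was uneven in APC-WT, the ratio was 1.458, 1.474 and 1.474 against 1.424, 1.409 and 1.458. The groups then touched, with APC-KI replicate 3 level with APC-WT replicate 1.

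Libraries of a group differed from each other in the whole family at once. APC-WT replicate 1 was the highest of its group for 58 of the 79 members and APC-WT replicate 2 the lowest for 52. In APC-KI, replicate 3 was the lowest for 67 members and replicate 2 the highest for 51. Relative to the APC-WT mean, the median member stood at 0.065, −0.050 and −0.0083 (log2) in APC-WT replicates 1 to 3 and at −0.11, −0.082 and −0.20 in APC-KI replicates 1 to 3. The step between the nearest libraries of the 2 groups, APC-WT replicate 2 and APC-KI replicate 2, was thus smaller than the range inside either group. Members shift together within a library and are not independent observations of the group difference.

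**Figure D2:**
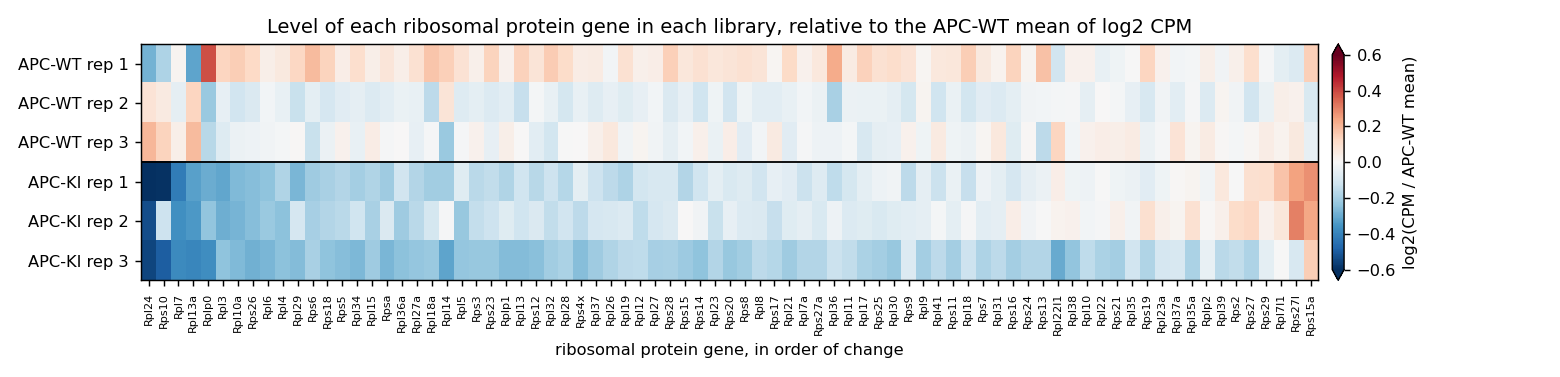
Level of each tested ribosomal protein gene (columns, in order of change) in each library (rows), as log2 of its CPM over the APC-WT mean, red above and blue below. APC-WT replicate 1 is mostly red and APC-KI replicate 3 is the bluest row, with medians of 0.065 and −0.20.

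As a share of each library, the 82 genes took 3.99%, 3.61% and 3.68% of all counts in APC-WT and 3.10%, 3.20% and 3.09% in APC-KI. The groups did not overlap, and the mean share in APC-KI was 0.832 of that in APC-WT (3.13% ± 0.064 against 3.76% ± 0.20, SD, n = 3 each). A share is set against everything else in the library. The 10 most abundant genes, none of which is a ribosomal protein gene, took 3.68% to 4.31% in APC-WT and 4.88% to 5.19% in APC-KI. Mitochondrially encoded genes took 2.503% to 2.98% and 2.20% to 2.43%, in the same order. With those genes left out of the total the ratio was 0.841. On the TMM scale the summed level was 38242, 34571 and 35665 CPM in APC-WT against 32983, 33638 and 31219 CPM in APC-KI, a ratio of 0.902, again without overlap.

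**Figure D3:**
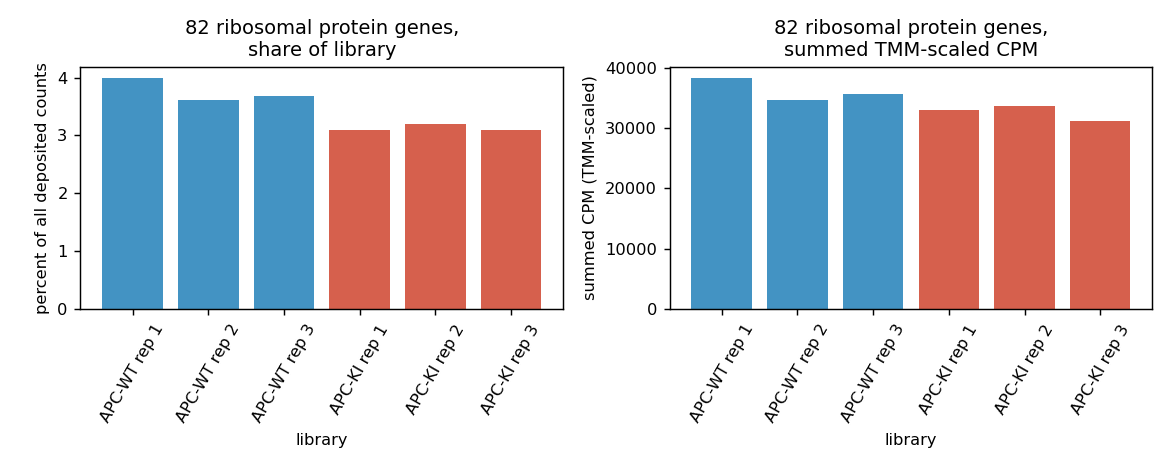
Ribosomal protein genes as percent of all deposited counts (left) and as summed TMM-scaled CPM (right) in the 6 libraries, blue for APC-WT and red for APC-KI. APC-KI bars are lower in both panels, with a ratio of means of 0.832 on the left and 0.902 on the right.

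Levels ranged widely between members. The mean over a group was at least 100 CPM for 73 of the 79 tested members in APC-WT, with the same number in APC-KI. The median member had 445 CPM in APC-WT against 387 CPM in APC-KI. Per kb of transcript, with lengths from GENCODE M21, the median was 531 and 490.0 CPM per kb. The member with the highest level per length in both groups was Rps12, a small subunit protein, at 1342 CPM per kb in APC-WT and 1195 in APC-KI. In CPM it stood at 698, 656 and 635 against 591, 623 and 557, a fitted log2 change of −0.17 (not past the threshold, edgeR adjusted p = 0.168). Rps15a and Rps20 stood low per length (55.1 and 95.4 CPM per kb in APC-WT) with models of 5130 and 3706 bases.

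Of the tested members Rpl24 had the lowest level per length, 1.36 CPM per kb in APC-WT and 0.892 in APC-KI. Its counts were 50, 55 and 56 against 29, 33 and 35. In M21, 71.5% of its exon bases are also covered by another gene model on the same strand, Gm28037, which was listed at 0 counts in all 6 libraries. Same-strand overlap was also found for Rpl13a (54.9%, with Gm45713 and Mir5121) and Rps10 (38.8%, with a read-through model with Nudt3). Both were chosen after their values were seen. Rpl13a had 1875, 2178 and 2141 counts against 1458, 1444 and 1502, and Rps10 had 450, 454 and 450 counts against 265, 368 and 306. Groups lay apart in CPM for Rpl24, narrowly for Rpl13a and not for Rps10, and none of the 3 passed (Rpl24 −0.61, Rpl13a −0.37 and Rps10 −0.40 on the log2 scale, edgeR adjusted p = 0.124, 0.105 and 0.174). Reads that fall in 2 gene models are dropped or shared by many counters, and the counter is not given in the sources used here, so the levels of these 3 genes are uncertain.

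The P stalk, the flexible arm of the large subunit that recruits elongation factors, had no gene past the threshold. Rplp0, its base, had 1667, 1096 and 1139 CPM in APC-WT against 1039, 1083 and 987.5 CPM in APC-KI. APC-WT replicate 1 stood 1.49-fold above the mean of the other 2 APC-WT libraries, the largest such ratio of the tested members (median 1.07, next 1.26). Its fitted change on the log2 scale was −0.33 (SE 0.17, edgeR adjusted p = 0.198), and −0.11 without APC-WT replicate 1 (edgeR adjusted p = 0.394). Rplp1 was at 636, 598 and 640 CPM against 551, 594 and 521 CPM (−0.17, edgeR adjusted p = 0.165), without overlap by a narrow gap. For Rplp2 the values were 265, 243 and 267 CPM against 254, 259 and 249.7 CPM (−0.021, edgeR adjusted p = 0.842), with all APC-KI values inside the APC-WT range.

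Rpl5 and Rpl11, which bind the 5S ribosomal RNA and, when not built into ribosomes, the p53 inhibitor MDM2, did not pass. Rpl5 was at 820.2, 730.2 and 767 CPM in APC-WT against 734, 659 and 657 CPM in APC-KI (log2 change −0.18, edgeR adjusted p = 0.173), with replicate 1 of APC-KI inside the APC-WT range. Rpl11 was at 510.2, 482 and 489 CPM against 459, 467 and 445 CPM, all APC-KI values lower (−0.11, edgeR adjusted p = 0.259). Of a list of 10 genes of the p53 response, 1 rose and 1 fell, where 12.5% of all genes tested rose and 7.63% fell. Ccng1, a p53 target, rose from 126, 95.4 and 97.9 CPM to 179, 183 and 139 CPM (log2 change 0.65, edgeR adjusted p = 0.0293). Trp53, the p53 gene itself, fell by 0.36 on the log2 scale (edgeR adjusted p = 0.0163).

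Rps6, the small subunit protein phosphorylated by S6 kinase below mTORC1, was at 650.0, 546 and 519 CPM against 490.3, 496 and 497 CPM (−0.21, edgeR adjusted p = 0.166). Its APC-KI values were nearly equal and all lay under the lowest APC-WT value. Rpsa, which is also known as a laminin receptor, was at 1328, 1210 and 1257 CPM against 1090, 1188 and 1045 CPM (−0.19, edgeR adjusted p = 0.142). Rps27a, made as a fusion with ubiquitin, was at 507, 474 and 476 CPM against 459.9, 455 and 429 CPM (−0.12, edgeR adjusted p = 0.266). None of these 3 passed. In all 3 the groups lay apart with APC-KI lower, as they did for 37 of the 79 members and 21.5% of all genes tested. Of 12 members known for causing Diamond-Blackfan anaemia when mutated, 0 passed in either direction, 11 lay below 0 and the median was −0.12. Of all 79 tested members 2 passed, 74 lay below 0 and the median was also −0.12.

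Several ribosomal proteins have divergent copies with their own tissue patterns, and none of the 3 copies that match the rule and had enough counts passed. Rps27l, a p53-responsive copy of Rps27, had 72.2, 77.8 and 79.7 CPM in APC-WT against 90.4, 94.5 and 71.6 CPM in APC-KI (log2 change 0.16, edgeR adjusted p = 0.345), with APC-KI replicate 3 below all APC-WT libraries. Rps27 was at 267, 231 and 252 CPM against 266, 272 and 219.8 CPM (0.015, edgeR adjusted p = 0.930). For Rpl22l1 the values were 61.7, 66.3 and 73.1 CPM against 68.7, 67.8 and 54.2 CPM (−0.076, edgeR adjusted p = 0.660), and for Rpl22, its partner, the change was −0.064 (edgeR adjusted p = 0.577). Rpl7l1, a copy linked to ribosome assembly, had 88.4, 94.4 and 93.4 CPM against 104, 96.5 and 91.9 CPM (0.081, edgeR adjusted p = 0.442). Rpl7, its partner, fell as given above.

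Within libraries the ratio of counts of copy to partner removes the scaling of libraries. Rpl7l1 over Rpl7 was 0.0790, 0.0884 and 0.0823 in APC-WT and 0.125, 0.113 and 0.108 in APC-KI, 1.39-fold higher and without overlap (exact two-sided permutation p = 0.1, adjusted over the 3 pairs 0.3). With 3 against 3 the smallest p is 0.1, so this design cannot reach 0.05, and Rpl7 was already known to have fallen. Rps27l over Rps27 was 0.308 ± 0.034 against 0.338 ± 0.011 (SD, n = 3 each, exact permutation p = 0.2, adjusted 0.3). Rpl22l1 over Rpl22 was 0.324 ± 0.018 against 0.321 ± 0.018 (SD, n = 3 each, exact permutation p = 0.9, adjusted 0.9). The last 2 ratios overlapped between the groups.

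The remaining copies were scarce. Rpl39l had 1, 1 and 0 counts in APC-WT and 4, 19 and 6 counts in APC-KI, and Rpl3l, known from skeletal muscle and heart, had 7, 4 and 4 against 4, 10 and 6. Rpl10l, known from testis, had 0 counts in all libraries. Their partners were abundant and did not pass. Rpl39 had 189, 194.5 and 193 CPM against 201, 196 and 172 CPM (−0.021, edgeR adjusted p = 0.866), and Rpl10, which completes the large subunit late in its assembly, had 776, 734 and 776 CPM against 745, 754 and 687 CPM (−0.066, edgeR adjusted p = 0.549). Rps4x was at 733, 690.1 and 712 CPM against 684, 638 and 596 CPM (−0.15, edgeR adjusted p = 0.199). Its retrogene Rps4l is typed as a pseudogene in M21 and so is no member. Rps4l fell 4.42-fold, from 590, 511 and 687 counts to 172, 81 and 117 (edgeR adjusted p = 0.00941).

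Processed pseudogenes, intron-less copies of these mRNAs elsewhere in the genome, bear on the members because near-identical sequence can draw reads away from the parent row. The table held 298 rows named as pseudogenes of 60 members, 193 of them with a count. Of the 73 tested, 7 fell in APC-KI (9.59%, near the 7.63% of all genes tested) and 0 rose (12.5% of all genes), with a median log2 change of −0.30. Together the 298 rows had 11097, 11900 and 10545 counts in APC-WT and 4753, 5289 and 5147 in APC-KI, 0.0174% to 0.0219% of a library against 0.00858% to 0.00963%. The 7 that fell made up most of that difference, with 3839, 5222 and 5227 counts against 132, 164 and 225. The other 291 had 7258, 6678 and 5318 against 4621, 5125 and 4922.

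Of these 7 rows, 5 carry the name of Rps15a, 1 of Rps13 and 1 of Rpl19. They were named after their values were seen, as were their parents. Rps15a-ps7 had 1847, 2960 and 2881 counts in APC-WT and 20, 39 and 31 in APC-KI, 79.1-fold lower (edgeR adjusted p = 0.00119). Rps13-ps1 had 632, 1053 and 924 counts against 8, 4 and 7, 125-fold lower (edgeR adjusted p = 0.00119). For Rpl19-ps3 the counts were 947, 632 and 877 against 76, 83 and 156, 7.15-fold lower (edgeR adjusted p = 0.00493). Rps15a-ps8 had 42, 61 and 74 counts against 0 in each APC-KI library. In each of the 4 the groups lay far apart.

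Rps15a, a small subunit protein, was the tested member with the most positive fitted change. Its own row had 311, 265 and 272 CPM in APC-WT against 341, 331 and 312 CPM in APC-KI, just without overlap (log2 change 0.21, SE 0.086, edgeR adjusted p = 0.120). Pseudogene rows held 9.88%, 19.2% and 19.2% of the sum of parent and pseudogene counts in APC-WT and 0.348%, 0.5004% and 0.415% in APC-KI. With those counts added to the parent the log2 change was −0.033 (edgeR adjusted p = 0.751), so its sign depends on where these reads are counted. For Rps13 the pseudogene rows held 4.12%, 8.30% and 8.43% against 0.473%, 0.416% and 0.399%, and its own row was at 243, 213 and 193 CPM against 210.0, 215 and 191 CPM (−0.076, edgeR adjusted p = 0.619). With its pseudogene counts added the change was −0.17 (edgeR adjusted p = 0.216). Rpl19 kept most of its counts in both groups, its pseudogenes taking 2.41% to 2.91% in APC-WT and 0.769% to 1.01% in APC-KI. Which reads the counter gave to parent or pseudogene was not tested.

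**Figure D4:**
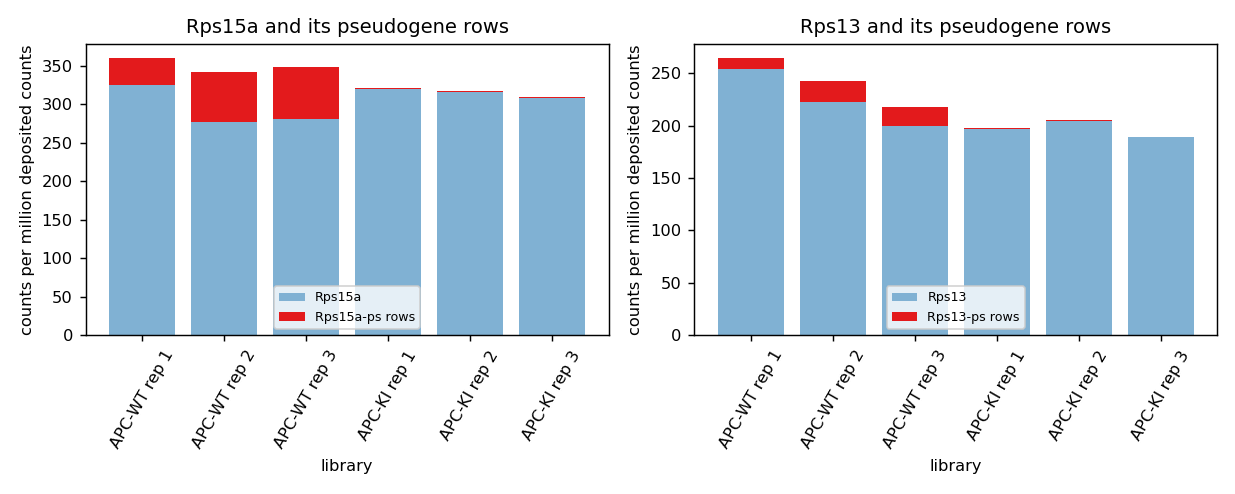
CPM without TMM scaling of the Rps15a row (left) and the Rps13 row (right) in blue, with the summed pseudogene rows of each stacked in red, for the 6 libraries. The red part is 9.88% to 19.2% of the Rps15a bar in APC-WT and at most 0.5004% in APC-KI.

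Of 4 ribosome components outside the naming rule (Rps3a1, Fau, Rack1 and Rpl36al) 0 passed, 3 lay below 0 and the median log2 change was −0.11. Rack1, a scaffold on the small subunit, and Fau, a ubiquitin-like fusion with a small subunit protein, had changes of −0.12 and −0.094.

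Other genes known for TOP mRNAs were compared as a list of 18, of which 4 fell, 0 rose and 17 lay below 0, with a median log2 change of −0.20, where 7.63% of all genes tested fell. Nap1l1, a histone chaperone, fell from 295, 287 and 342 CPM to 230.2, 219.7 and 221 CPM (log2 change −0.46, edgeR adjusted p = 0.0162). Pabpc1, the cytoplasmic poly(A)-binding protein, fell from 1446, 1433 and 1419 CPM to 1133, 1086 and 1176 CPM (−0.34, edgeR adjusted p = 0.0216). Npm1, a nucleolar chaperone of ribosome assembly, and Hnrnpa1, an RNA-binding protein, fell by 0.41 and 0.33 on the log2 scale (edgeR adjusted p = 0.0310 and 0.0287). All 4, named because they passed in these same libraries, had groups that did not overlap, where 21.5% of all genes tested did so with APC-KI lower. The list shares genes with the lists of initiation and elongation factors.

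Of 34 translation initiation factor genes 3 fell and 1 rose, with a median of −0.12. For this and the next lists, 7.63% of all genes tested fell and 12.5% rose. Eif3b, Eif4a1 and Eif2b4 fell by 0.26, 0.26 and 0.26 on the log2 scale, and Eif2s2, a subunit of the factor that brings the initiator tRNA, rose by 0.28 (edgeR adjusted p = 0.0337, 0.0447, 0.0475 and 0.0490). Of 11 elongation and termination factor genes 0 passed, 10 lay below 0 and the median was −0.19. Mitochondrial ribosomal proteins had a median of −0.057 over 77 tested, with Mrps6 higher (0.68, edgeR adjusted p = 0.0290) and Mrps10 lower (−0.35, edgeR adjusted p = 0.0249). A list of nuclear respiratory chain genes was taken by name prefix, so it also holds assembly factors and ATP synthase genes. Of its 90 genes 85 were tested and 3 had no counts in any library. The median was 0.15, with Ndufa8 and Ndufb8 higher (0.40 and 0.33, edgeR adjusted p = 0.0342 and 0.0361) and 0 lower. These lists are descriptions, and no test was made between them.

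**Figure D5:**
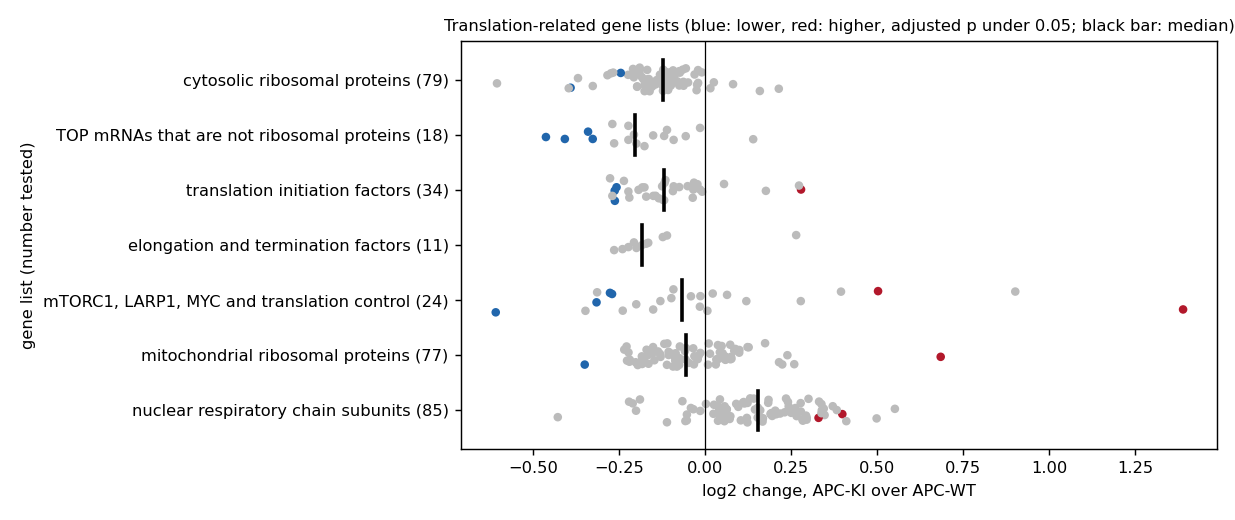
Fitted log2 change (horizontal axis) of each tested gene in 7 lists, 1 point a gene, with blue for genes that fell, red for genes that rose and a black bar at the median. The median is −0.12 for cytosolic ribosomal proteins and −0.20 for other TOP mRNAs. It is 0.15 for the list labelled respiratory chain subunits, which was taken by name prefix.

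In a list of 24 genes of mTORC1, LARP1, MYC and translation control 2 rose and 4 fell, with a median of −0.067. That is 25% called in either direction, near the 20.1% of all genes tested. Myc had 146, 119 and 115 CPM in APC-WT against 86.0, 82.1 and 80.5 CPM in APC-KI, a fall of 34.5% without overlap (log2 change −0.61, SE 0.10, edgeR adjusted p = 0.0130). Mxd1, which encodes a partner of MAX that opposes MYC, rose from 119, 147 and 155 CPM to 421, 409 and 271 CPM (1.39, edgeR adjusted p = 0.00785). Mxi1, from the same family of antagonists, fell by 0.32 (edgeR adjusted p = 0.0387). Eif4ebp1, the translation repressor that mTORC1 phosphorylates, rose by 0.50 (edgeR adjusted p = 0.0330). RNA levels do not show the phosphorylation through which mTORC1 acts.

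Markers of several cell types differed between the groups, and their part in the ribosomal protein values was not tested. Over all genes tested 12.5% rose and 7.63% fell, and the smaller counts below are not far from these shares. Proliferation markers had 0 of 10 higher and 1 lower (Mcm2, log2 change −0.45), with summed levels of 1265 to 1708 CPM in APC-WT against 1299 to 1429 CPM in APC-KI. Stem cell markers had 4 of 6 lower, with 914 to 1220 CPM against 466 to 618 CPM. Epithelial markers summed to 9510 to 10605 CPM against 12437 to 14964 CPM. Smooth muscle markers had 8 of 8 higher, with 188 to 471 CPM against 1000.1 to 1619 CPM. B and plasma cell markers had 6 of 8 higher, with 842 to 1308 CPM against 5786 to 14356 CPM. Higher were also 3 of 8 markers of fibroblasts, 3 of 6 of endothelium, 4 of 8 of T and NK cells, 2 of 8 of macrophages, 3 of 6 of neutrophils and 3 of 7 of neurons and glia. Mast cell markers had 7 of 7 lower, with 153 to 889 CPM against 19.1 to 37.3 CPM.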

How the data were processed

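Poly(A) RNA libraries (TruSeq Stranded mRNA, per the labels' protocols) of 6 colon tumours pinched from the muscle beneath were analysed. The deposited values are whole-number counts per Ensembl gene, made by the authors. The submitters' processing notes name STAR, DESeq2 1.37.6, cutadapt 2.5 and Trim Galore 0.6.4, and the builds mm10 and GRCm38. What each tool did, how genes were counted, the strand setting and the annotation are not given in the sources used here. Names and types came from GENCODE M21, which named 52147 of 53700 identifiers. Versions matched M21 for only 35 identifiers, so its exon overlaps and lengths may differ from those counted. Transcript length is that of the shortest best-supported principal coding transcript.

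Counts went through filterByExpr, TMM factors, estimateDisp, robust glmQLFit and glmQLFTest in edgeR 4.0.16 (R 4.3.3), with group as the only term and Benjamini-Hochberg adjustment over 19127 genes (threshold 0.05). CPM values are TMM-scaled except in the plot of pseudogene rows. The steps were tested on simulated data. Replicates differed beyond sampling noise (chi-square per gene 39.5 to 114) and each counted once. Alternatives were DESeq2 1.42.0, limma-voom (limma 3.58.1), other scalings and filters, a replicate block, each library left out, the 4 libraries without Y-linked counts and pseudogene counts added to parents.

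The members and lists were chosen with earlier results of these data known. Values are given for members past the threshold, the P stalk, Rpl5, Rpl11, Rps6, Rpsa, Rps27a, the divergent copies with their partners, the extremes per length and up to 4 passing genes a list with the smallest p. Other named genes were chosen after their values were seen. 1 further component outside the naming rule is not reported here. Promoter sequences are from RefSeq (GRCm38.p6).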

Additional observations from a re-analysis of the deposited data

How the results depend on the processing

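Members lower in APC-KI numbered 2, and 10 with DESeq2, 4 with limma-voom, 9 with upper-quartile factors, 32 with library totals only, 4 with a stricter filter (CPM over 1 in at least 3 samples), 1 with no filter, 0 in the 4 libraries without Y-linked counts and 0 to 2 with 1 library left out. No filter also gave 1 member higher (Rpl39l), where every other setting gave 0. The median log2 change was −0.091 to −0.16 with 1 library left out. Library totals gave −0.24, and moved the median of all genes to −0.13. All genes tested gave 178 higher and 152 lower in the 4 libraries, 2388 lower with DESeq2, 2841 lower with library totals, and 788 to 2542 higher and 300 to 1595 lower with 1 library left out. Upper-quartile factors called 1865 of all 19127 genes lower, the stricter filter 1366 of 15249 and no filter 1259 of 32292. The share ratio was 0.816 to 0.858 with 1 library left out. The replicate block gave 0 members lower, and 1195 higher and 465 lower over all genes. Samples of the same number showed no sign of deviating together (correlations 0.035, −0.068 and −0.18). Samples of different numbers gave −0.14 to 0.20, so these values cannot decide whether the numbers pair the samples.

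Signs turned for some genes whose fitted change was under 0.1 in size, and the cause was not tested. With library totals Rpl7l1 was −0.036 and Rps27 −0.10, and with upper-quartile factors Rps27 was −0.024. In the 4 libraries Rps13 was 0.087. Over the fits with 1 library left out, Rps27 ranged from −0.043 (without APC-WT replicate 2) to 0.096 and was also below 0 without APC-KI replicate 1 (−0.023) or 2 (−0.037). Over the same fits Rpl39 ranged from −0.062 to 0.036 and Rpl22l1 from −0.13 to 0.017 (both highest without APC-KI replicate 3), Rplp2 from −0.065 to 0.0016 (without APC-WT replicate 3) and Rps13 from −0.15 to 0.015 (without APC-WT replicate 1). Rps15a, at 0.21, was −0.033 where its pseudogene counts were added. Rpl6 and Rpl7 kept their sign in every setting run, and Rpl7 had an adjusted p of 0.0507, 0.0592 and 0.0530 without APC-WT replicate 2, APC-KI replicate 1 and APC-KI replicate 2 (edgeR).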
